A study of Drosophila melanogaster with 12 samples.

Results

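Cells that divide have to copy their DNA, and the enzymes that do so work in a fixed order. Primase lays down short RNA primers, and the polymerase alpha to which it is bound extends them with a stretch of DNA. Polymerases delta and epsilon then take over most of the synthesis, held on the template by the sliding clamp PCNA, and the flap endonuclease Fen1 trims the 5′ ends of the fragments of the lagging strand before they are ligated. Ribonucleotide reductase, made of a large and a small subunit, supplies the deoxynucleotides. In Drosophila, several of these genes are known targets of the transcription factors E2F and DREF, and their transcripts are most abundant in cells that are in or close to S phase.

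The 10 genes examined here encode these enzymes: both primase subunits (Prim1 and Prim2), the catalytic and the accessory subunit of polymerase alpha (PolA1 and PolA2), the catalytic subunits of polymerases delta and epsilon (PolD1 and PolE1), PCNA, Fen1, and both subunits of ribonucleotide reductase (RnrL and RnrS). They were chosen by name, as the array probes whose transcript identifier starts with the annotation number of the gene. This gave 11 probes in 16 spots, out of 32162 gene probes on the array, of which 19488 matched 13059 genes of RefSeq. PolA1 had 2 probes and each of the other genes had 1. All 10 genes passed the filter on dim probes, and all 192 readings of their spots (16 spots on 12 arrays) were well above background.

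The samples were cultures of S2R+ cells, an embryo-derived Drosophila melanogaster line with features of hemocytes (blood cells), a single line without any gene manipulation. Cultures were kept for 24 h at 11, 14, 25 or 30 °C before RNA isolation, with 3 biological replicates and hence 3 single-colour (Cy3) arrays per temperature. Numbers of plated cells were adjusted to the temperature, from 4500000 at 11 °C over 3500000 and 1700000 at 14 and 25 °C down to 1500000 at 30 °C, and therefore varied with it. A normalised signal below is the processed spot intensity after each array had been set to the median level of the 25 °C arrays. Signals of different probes are not comparable as transcript amounts, so levels are compared within a gene only. In bulk RNA, fewer cells that transcribe a gene cannot be told apart from less transcript per cell.

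The 12 arrays were similar in quality, with between 53.9% and 61.1% of 43603 gene spots well above background and no saturated gene spot. All 9 genes listed as hemocyte markers were detected. Of them, 3 were called lower at the low temperatures, among them Hml (log2 change -1.98), beside 11.4% of all features. The gene fz, known to distinguish S2R+ from other S2 cells, was detected too and was called lower at the low temperatures (log2 change -1.81) and higher at 30 against 25 °C (1.41), but not called at 14 against 25 °C (-0.79). At 30 against 25 °C, 5 of the 9 hemocyte markers were called higher and 1 lower, beside 4.17% and 3.39% of all features. The part of these markers in the results below was not tested. Of 9 markers of muscle, neurons, fat body and germline, 6 passed the filter and none was called in this comparison. One slide held replicate 1 of every temperature. The other replicates lay on a slide with 11 and 14 °C only or on a slide with 25 and 30 °C only, so that slide and temperature cannot be told apart there.

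Signals of 9 of the 10 genes were lower in the cold. The comparison of the 6 arrays at 11 and 14 °C with the 6 arrays at 25 and 30 °C asks which transcripts distinguish cells in the cold from cells in the warm. Genes were called where limma, fitted over all 15117 features, gave a 2-fold or larger change with an adjusted p under 0.01, and 11.4% of all features were called lower in this comparison. The 9 called genes were between 2.48-fold (PolD1) and 9.59-fold (Prim1) lower, and their low arrays all lay below all their high arrays, as was the case for 21.4% of all features. Fen1 was not called. The median log2 change of the 10 genes was -1.72, against -0.17 for all features. Under a normexp background correction no feature was called in this or any other comparison by limma (1 of the 10 genes had an unadjusted p under 0.05 here). Spots with local backgrounds of up to 65238 units entered that correction. With flagged local backgrounds replaced by the array median, an alternative chosen after seeing the data, the count was 9 again, beside 621 of all 15117 features called lower.

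**Figure D1:**
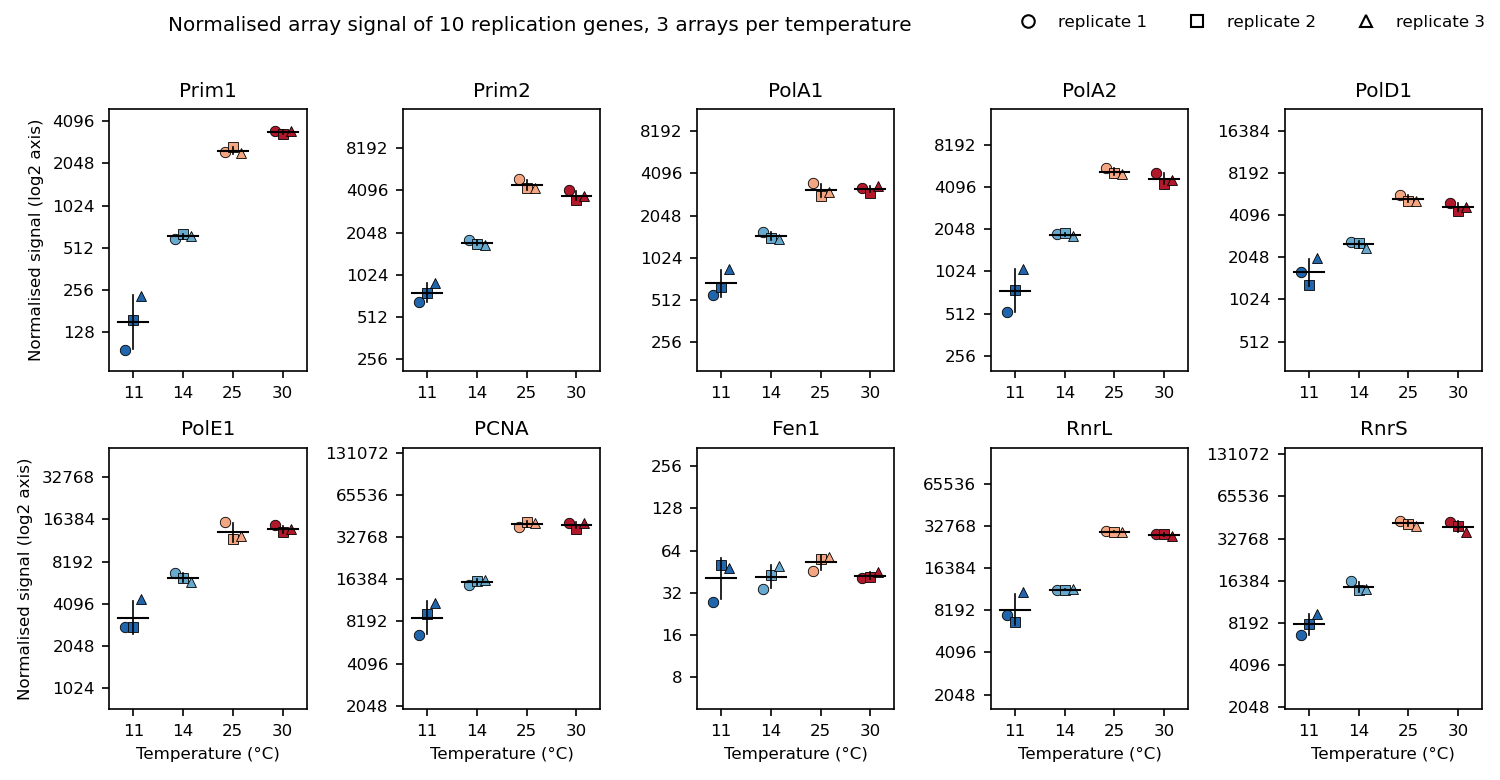
Normalised signal of the 10 genes on each array (log2 axis spanning the same fold range in every panel) at 11, 14, 25 and 30 °C. Symbols are the 3 replicates, horizontal lines the mean of log2 values and vertical lines ±1 SD. Signals of every gene except Fen1 were lowest at 11 °C, intermediate at 14 °C and high at 25 and 30 °C, and Prim1 spans the widest range.

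Prim1, which encodes the small, catalytic subunit of primase, showed the strongest decrease. Its normalised signals in replicates 1, 2 and 3 were 95.1, 157 and 233 (11 °C), 596, 645 and 618 (14 °C), 2453, 2686 and 2416 (25 °C) and 3511, 3316 and 3474 (30 °C). No temperature overlapped with another, and the order of the arrays followed temperature over the whole range. At 11 °C the mean was 6.02% of that at 25 °C, a 16.6-fold lower signal (log2 change -4.05 ± 0.25, SE, n = 3 each, limma adjusted p = 6.83e-07). Among all 15117 features, none had a lower estimate for 11 against 25 °C. For the low against the high temperatures Prim1 ranked 16 from the lowest. At 14 °C Prim1 was 4.06-fold lower than at 25 °C (log2 change -2.02 ± 0.25, adjusted p = 0.00016), which ranked 83 from the lowest. The spread at 11 °C was wide, with a 2.45-fold range between replicate 1 and replicate 3. On slide 1 alone the log2 change of Prim1 for 11 against 25 °C was -4.69, and in replicates 2 and 3 it was -3.73. In RefSeq Prim1 overlaps CG7083, whose own log2 change for 11 against 25 °C was -0.37.

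The study's own qRT-PCR oligos for Prim1, a gene of chromosome 3L listed there under its synonym DNApol-alpha50, are shown because they name the transcript behind the most strongly changed signal. They are given 5′ to 3′ and their measurements were not analysed here.
Prim1 oligo A: ccttctaccgttggctatcg
Prim1 oligo B: atcgtcctgcagtgtaaagg

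Prim2 encodes the large subunit of primase, which is required for primer synthesis and links primase to polymerase alpha. Its signals were 659, 766 and 889.8 (11 °C), 1812, 1703 and 1675 (14 °C), 4971, 4285 and 4278 (25 °C) and 4097, 3523 and 3714 (30 °C). The 3 cold arrays at 11 °C lay below those at 14 °C, which lay below all arrays at 25 and 30 °C. Prim2 was 5.87-fold lower at 11 than at 25 °C (log2 change -2.55 ± 0.13, adjusted p = 2.40e-07) and 2.6-fold lower at 14 than at 25 °C (log2 change -1.38 ± 0.13, adjusted p = 3.81e-05).

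Both subunits of polymerase alpha fell as well. PolA1 is the catalytic subunit, and its signals were 556, 634 and 858 (11 °C), 1564, 1427 and 1400.0 (14 °C), 3478, 2840.1 and 2999.5 (25 °C) and 3213, 2990.2 and 3305 (30 °C). Arrays at 11 and 14 °C were separated from each other and from the warm arrays, whereas those at 25 and 30 °C overlapped. PolA1 was 4.61-fold lower at 11 than at 25 °C (log2 change -2.20 ± 0.16, adjusted p = 1.64e-06). Its 2 probes gave log2 changes of -2.03 and -2.38 for this comparison, and -1.07 and -1.10 for 14 against 25 °C. The gene overlaps Jhbp16, which had 4 of 6 spots well above background at 11 °C, 6 of 6 at 14 °C and 0 of 6 at each of 25 and 30 °C, so that no fold change is given for it.

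PolA2 encodes the accessory subunit that bridges the catalytic subunit and primase. Its signals were 523, 749.7 and 1071 (11 °C), 1885, 1928 and 1826 (14 °C), 5610.4, 5194 and 5074 (25 °C) and 5187, 4325 and 4628 (30 °C). The replicates at 11 °C spread over a 2.05-fold range, wider than at any other temperature, but remained below all arrays at 14 °C. PolA2 was 7.06-fold lower at 11 than at 25 °C (log2 change -2.82 ± 0.21, adjusted p = 2.13e-06), the second largest decrease among the 10 genes.

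The catalytic subunits of the polymerases that carry out bulk synthesis fell too, with smaller estimates at 11 against 25 °C than either primase subunit, a difference that was not tested. PolD1, of polymerase delta, had signals of 1595, 1291 and 2009 (11 °C), 2648, 2594 and 2365 (14 °C), 5708, 5138 and 5198 (25 °C) and 5026, 4385 and 4638 (30 °C). It was 3.33-fold lower at 11 than at 25 °C (log2 change -1.73 ± 0.15, adjusted p = 6.72e-06), the smallest change of the 9 called genes. PolE1, of polymerase epsilon, had signals of 2779.9, 2786 and 4455 (11 °C), 6839, 6308 and 5817 (14 °C), 15634, 11814 and 12511 (25 °C) and 14842, 13254 and 13914 (30 °C). It was 4.06-fold lower at 11 than at 25 °C (log2 change -2.02 ± 0.19, adjusted p = 9.21e-06). In both genes the arrays at 11 and at 14 °C did not overlap with each other or with the warm arrays. PolD1 overlaps Arl1, whose signal at 11 °C was 94.3% of that at 25 °C.

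PCNA, the clamp that tethers polymerases delta and epsilon to DNA, gave bright signals of 6508, 9242 and 11013 (11 °C), 14864, 16004 and 16079 (14 °C), 38604, 42148 and 41056 (25 °C) and 40922, 37618 and 41419 (30 °C). It was 4.65-fold lower at 11 than at 25 °C (log2 change -2.22 ± 0.17, adjusted p = 2.30e-06), and its profile was the closest of the 10 to the mean profile of all 10 genes (root mean square difference 0.091 in log2 over 12 arrays).

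Fen1, which works on the flaps that polymerase delta displaces, was the exception. Its signals were dim and did not separate the low from the high temperatures, with 27.5, 50.2 and 48.3 (11 °C), 34.2, 43 and 49.3 (14 °C), 45.9, 55.5 and 57.9 (25 °C) and 40.4, 41.5 and 45 (30 °C). The arrays at 30 °C lay within the range of those at 11 and 14 °C. The log2 change for the low against the high temperatures was -0.20 ± 0.16 (95% interval -0.55 to 0.15, adjusted p = 0.295), and for 11 against 25 °C it was -0.38 (95% interval -0.88 to 0.11). This interval does not reach a 2-fold decrease, but it rests on a spread shared by all temperatures. The SD of log2 signals of Fen1 was 0.49 at 11 °C, against 0.27, 0.18 and 0.08 at 14, 25 and 30 °C. The interval for 11 against 25 °C may therefore be too narrow to judge a 2-fold decrease. With slide as a block the estimates were -0.49 (adjusted p = 0.0168) and -0.67 (adjusted p = 0.00836), below the 2-fold threshold. The single Fen1 probe read between 39.4 and 73.4 units of processed signal, close to the median of all gene spots on the arrays (35.8 to 60.1 units), and its 2 spots on an array differed by up to 1.58-fold. Fen1 overlaps IntS8, whose signal at 11 °C was 62.6% of that at 25 °C. The sign of the Fen1 change for the low against the high temperatures turned to positive (0.044) with scaling on spike-in controls and (0.070) with the normexp correction.

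Both subunits of ribonucleotide reductase decreased. RnrL, the large subunit that holds the active and regulatory sites, had signals of 7578, 6752 and 10995 (11 °C), 11416, 11415 and 11549 (14 °C), 29926, 29636 and 29857 (25 °C) and 28887, 28518 and 27837 (30 °C). Arrays at 14 °C lay above all arrays at 11 °C and below all warm arrays. RnrL was 3.61-fold lower at 11 than at 25 °C (log2 change -1.85 ± 0.16, adjusted p = 5.22e-06) and 2.6-fold lower at 14 than at 25 °C (log2 change -1.38 ± 0.16, adjusted p = 0.000109). RnrS, the small subunit that carries the radical needed for catalysis, had signals of 6669.7, 8094 and 9498 (11 °C), 16374, 14132 and 14299 (14 °C), 43641, 41928 and 40516 (25 °C) and 43311, 40200.5 and 36595 (30 °C). It was 5.25-fold lower at 11 than at 25 °C (log2 change -2.39 ± 0.14, adjusted p = 5.44e-07) and 2.82-fold lower at 14 than at 25 °C (log2 change -1.50 ± 0.14, adjusted p = 3.50e-05).

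**Figure D2:**
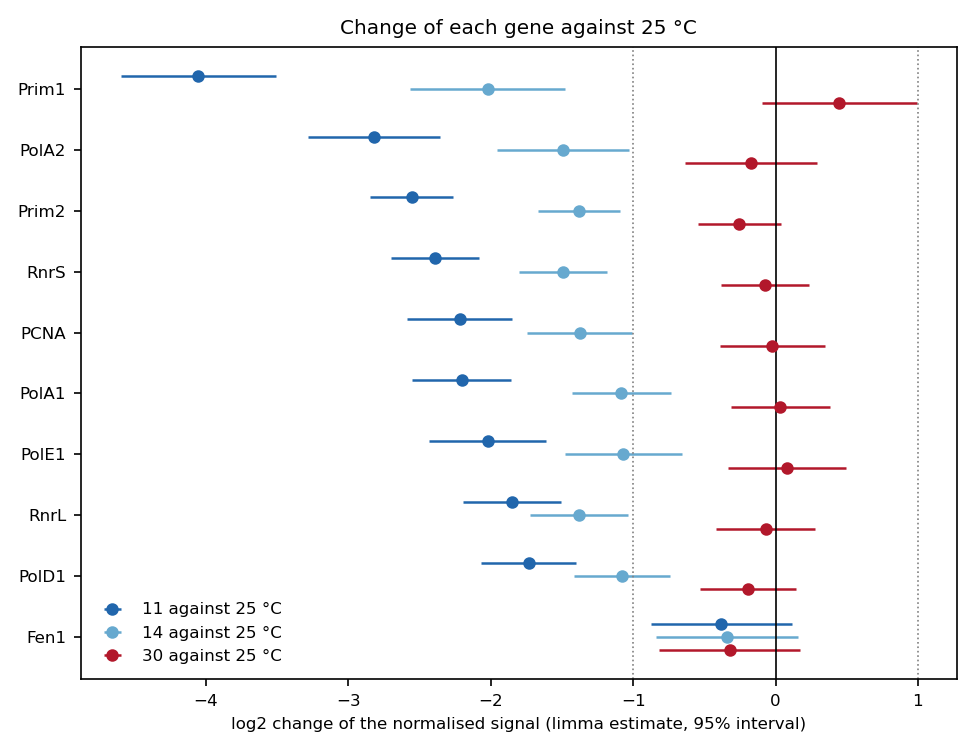
Log2 change of each gene against 25 °C at 11, 14 and 30 °C, as limma estimates with 95% intervals (3 arrays per temperature). The intervals rest on a spread shared by all 4 temperatures. Genes are sorted by the change at 11 °C and dotted lines mark a 2-fold change. Prim1 lies apart at -4.05, intervals from PolA2 down to PolD1 overlap their neighbours, and all intervals at 30 °C include 0.

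Each low temperature was also compared with 25 °C, the usual culture temperature, on its own. At 11 °C the same 9 genes were called lower, where 11.2% of all features were, with a median log2 change of -2.21 against -0.22 for all features. At 14 °C these 9 genes were again called lower, against a background of 4.95%, with a median of -1.38 against -0.19. Within this order at 11 °C, the interval of Prim1 (-4.60 to -3.51) did not overlap that of PolA2 (-3.28 to -2.36), whereas from PolA2 to PolD1 each gene's interval overlapped that of the next. That of Fen1 overlapped none. These intervals rest on a spread shared by all 4 temperatures. The SD of log2 signals of Prim1 was 0.65 at 11 °C, against 0.06, 0.08 and 0.04 at 14, 25 and 30 °C. Its interval at 11 °C may therefore be too narrow. The call at 14 °C depended on the scaling: 6 genes were called with scaling on the 75th percentile or quantile normalisation and 3 (Prim1, PolA2 and RnrS) with spike-in scaling, and limma's treat against a 2-fold threshold called none (6 had an unadjusted p under 0.05). Over all features, calls of lower signals at 14 °C were fewer as well under these settings, with 395 (75th percentile), 509 (quantile), 212 (spike-in) and 37 (treat) against 749 here. PolA1, PolD1 and PolE1 lay close to the 2-fold threshold at 14 °C, with log2 changes of -1.08, -1.08 and -1.07. Leaving out single arrays gave 7 to 9 called genes, beside 608 to 791 lower calls over all features. The estimates then reached -0.998 for PolA1 and -0.947 for PolE1.

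The step between the 2 low temperatures separated the genes further. At 11 compared with 14 °C, 4 genes were called lower, Prim1, Prim2, PolA1 and PolA2, which are the 4 subunits of the primase and polymerase alpha complex, where 1.22% of all features were called lower. Their log2 changes were -2.03 ± 0.25 (adjusted p = 0.0012), -1.17 ± 0.13 (0.000825), -1.12 ± 0.16 (0.00223) and -1.33 ± 0.21 (0.00384). The 2 PolA1 probes gave -0.97 and -1.28, the first of them short of a 2-fold change. With the brightest probe of a gene 3 of the 10 genes were called, and without the filter on dim probes 3 as well. Over all features, 178 of 15117 and 94 of 25142 were called lower under these settings. PolE1, PCNA and RnrS passed the adjusted p but not the fold threshold, with -0.95, -0.84 and -0.90. PolD1 at -0.66, RnrL at -0.47 and Fen1 at -0.04 passed neither. The arrays at 11 °C lay below all arrays at 14 °C in 9 of the 10 genes, as in 17.8% of all features. The difference between the 4 called genes and the others was not tested.

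Calls in this step depended on single arrays. Replicate 1 was the lowest array at 11 °C for 8 of the 10 genes and replicate 3 the highest for 9. Prim1 and Prim2 were called whichever single array was left out. PolA1 and PolA2 lost the call without any 1 of the 3 arrays at 14 °C, PolA1 also without replicate 1 and PolA2 without replicate 2 at 11 °C, and without replicate 3 at 11 °C 7 genes were called. None of the 10 was called by limma when the 6 arrays concerned were fitted alone (9 had an unadjusted p under 0.05) or when all arrays of replicate 1 were left out (8 had). Calls over all features moved in the same direction. Without replicate 3 at 11 °C 297 features were called lower, against 184 with all arrays. With the 6 arrays fitted alone limma called 1 of 15117 features (3897 had an unadjusted p under 0.05), and without replicate 1 it called 0 (4260 had).

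**Figure D3:**
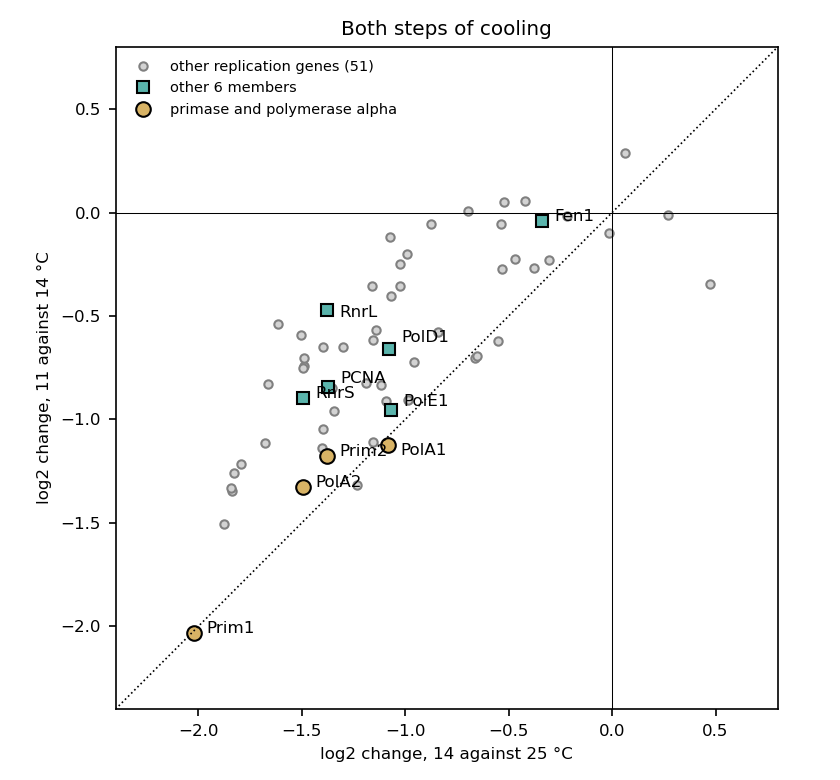
Log2 change for 14 against 25 °C (x axis) and for 11 against 14 °C (y axis) of the 10 genes and of 51 other replication genes tested. The dotted line marks equal changes in both steps, and positions relative to it depend on the scaling between arrays. The 4 subunits of primase and polymerase alpha and PolE1 lie close to this line, with Prim1 at the lower end, and RnrL lies farther above it.

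The share of the whole log2 change between 25 and 11 °C that was present at 14 °C differed between the genes. It was 49.9% for Prim1, 54.0% for Prim2, 49.1% for PolA1, 52.9% for PolA2 and 52.8% for PolE1. It was higher for PolD1 (62.1%), PCNA (62.0%) and RnrS (62.5%), and highest among the called genes for RnrL (74.5%). These shares are descriptions without a test, and they depend on the scaling between arrays. Spike-in scaling moved the median log2 change of all features by 0.42 at 14 against 25 °C and by -0.10 at 11 against 14 °C.

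The 10 genes gave no call between 30 and 25 °C. At 30 compared with 25 °C none of the 10 genes was called by limma and none had an unadjusted p under 0.05, where 7.56% of all features were called in either direction. The log2 changes lay between -0.32 (Fen1) and 0.45 (Prim1), with a median of -0.07 against -0.08 for all features. The 3 arrays at 30 °C lay above the 3 arrays at 25 °C for Prim1 only, with a mean 136% of that at 25 °C (95% interval of the log2 change -0.10 to 0.99, adjusted p = 0.234), as for 16.9% of all features, and below them for 4 genes, as for 22.8% of all features. The signs for PCNA, RnrL and RnrS depended on the scaling, with -0.02, -0.07 and -0.07 here and 0.056, 0.0094 and 0.0057 after scaling on the 75th percentile.

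Probe signals of the subunits of one enzyme did not always fall alike. For 3 pairs the log2 difference between both subunits was taken on each array, which cancels the scaling of that array, and the 6 arrays at 11 and 14 °C were compared with the 6 arrays at 25 and 30 °C by an exact two-sided permutation test with adjustment over the 3 pairs. The smallest p this test can give is 0.0022. Prim1 minus Prim2 was -2.34 ± 0.43 at 11 °C, -1.48 ± 0.11 at 14 °C, -0.84 ± 0.17 at 25 °C and -0.14 ± 0.08 at 30 °C (mean ± SD, n = 3 each). The 4 temperatures did not overlap, and the low minus high difference was -1.42 (exact p = 0.0022, adjusted p = 0.0032). Hence the signal of Prim1 was 2.68-fold lower relative to that of Prim2 at the low than at the pooled high temperatures. This value includes the shift between 25 °C (-0.84) and 30 °C (-0.14).

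PolA1 minus PolA2 was -0.16 ± 0.22 at 11 °C, -0.36 ± 0.08 at 14 °C, -0.77 ± 0.09 at 25 °C and -0.57 ± 0.11 at 30 °C. All low arrays lay above all high arrays, with a difference of 0.41 (exact p = 0.0022, adjusted p = 0.0032). The PolA2 signal fell 1.33-fold more than that of PolA1. For the low against the high temperatures the 2 PolA1 probes themselves gave log2 changes of -1.57 and -1.75. In all 3 pairs, differences between subunits cannot be told apart from differences between probes. RnrL minus RnrS was 0.045 ± 0.265 at 11 °C, -0.38 ± 0.12 at 14 °C, -0.50 ± 0.05 at 25 °C and -0.49 ± 0.09 at 30 °C. Low and high arrays overlapped in this pair, with a difference of 0.33 (exact p = 0.011, adjusted p = 0.011). The RnrS signal fell 1.25-fold more than that of RnrL. When arrays were permuted within slides only, which leaves few arrangements, the adjusted p of all 3 pairs was 0.167.

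**Figure D4:**
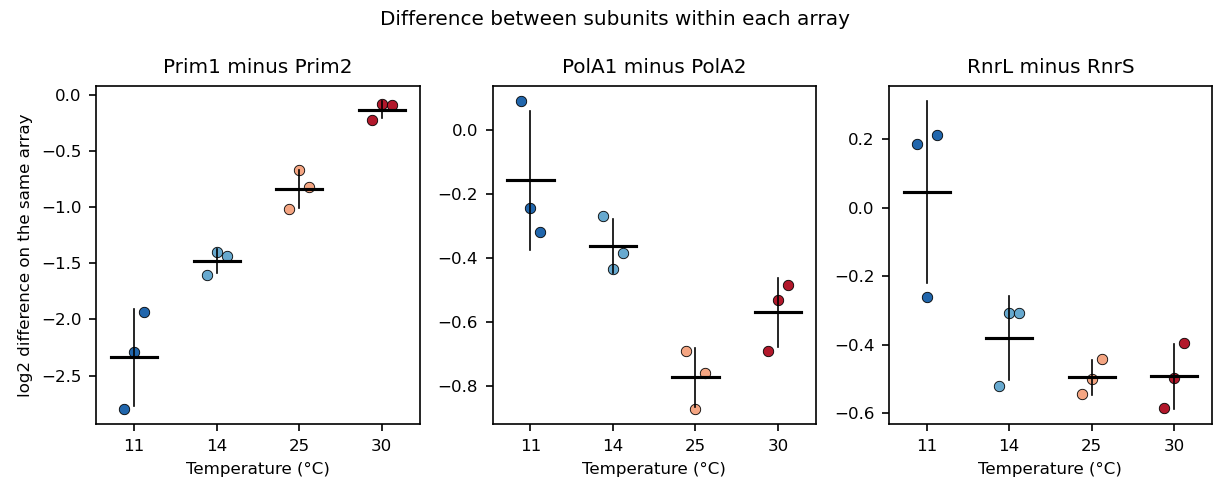
Log2 difference between the 2 subunits on the same array for primase, polymerase alpha and ribonucleotide reductase at 11, 14, 25 and 30 °C. Points are arrays, horizontal lines means and vertical lines ±1 SD (n = 3 each). Prim1 minus Prim2 increases over all 4 temperatures, whereas the other 2 differences are highest at 11 °C.

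Other genes of replication were counted in the same limma fit. Of 51 tested, 37 were called lower at the low temperatures, where 11.4% of all features were, and none was called higher. Among the partners of the polymerases, the clamp loader, the single-strand binding protein RPA and ligation, 13 of 17 were called lower, with a median log2 change of -1.30. The largest changes were those of DNAlig1, the ligase that joins Okazaki fragments (-1.99), PolE2, a subunit of polymerase epsilon (-1.98), and Ctf4, which connects polymerase alpha to the helicase (-1.81). The smallest were those of the topoisomerases Top1 (-0.33) and Top2 (-0.44) and of RPA1, the large RPA subunit (-0.68), none of them called.

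Of the other genes for deoxynucleotide synthesis, 4 of 7 were called lower. They included thymidylate synthase Ts (-2.05), the deoxynucleoside kinase dnk (-1.73) and dUTPase (-1.27), beside -1.58 for RnrL and -1.91 for RnrS. The nucleoside diphosphate kinase awd had a log2 change of -0.01, the dCMP deaminase gene CG6951 one of 0.41 and the dTMP kinase gene CG5757 one of 0.74, all below the fold threshold. In the list of origin licensing and helicase genes, 19 of 20 were called lower, with a median of -1.77. Mcm7 (-2.67) and Mcm5 (-2.46) of the helicase and Orc6 (-2.63) of the origin recognition complex changed the most, and geminin, an inhibitor of licensing (-1.20), and the GINS subunits Psf2 (-1.02) and Psf3 (-0.41, not called) the least.

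Of 7 tested genes for specialised or mitochondrial polymerases and their partners, 1 was called lower, with a list median of -0.42. This was PolG1, the catalytic subunit of the mitochondrial polymerase (-1.08). The translesion polymerases Rev1 (-0.67), PolH (-0.44) and PolI (-0.23), the mitochondrial single-strand binding protein mtSSB (0.06) and the repair polymerase PolQ (0.41) were not called. Among 6 regulators of transcription known to act on replication genes, Rbf2 (-1.68) and Rbf (-1.12) of the retinoblastoma family and Dref (-1.60) were called lower, while E2f1 (-0.21), E2f2 (-0.35) and Dp (-0.67) were not. Differences between these lists were not tested.

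**Figure D5:**
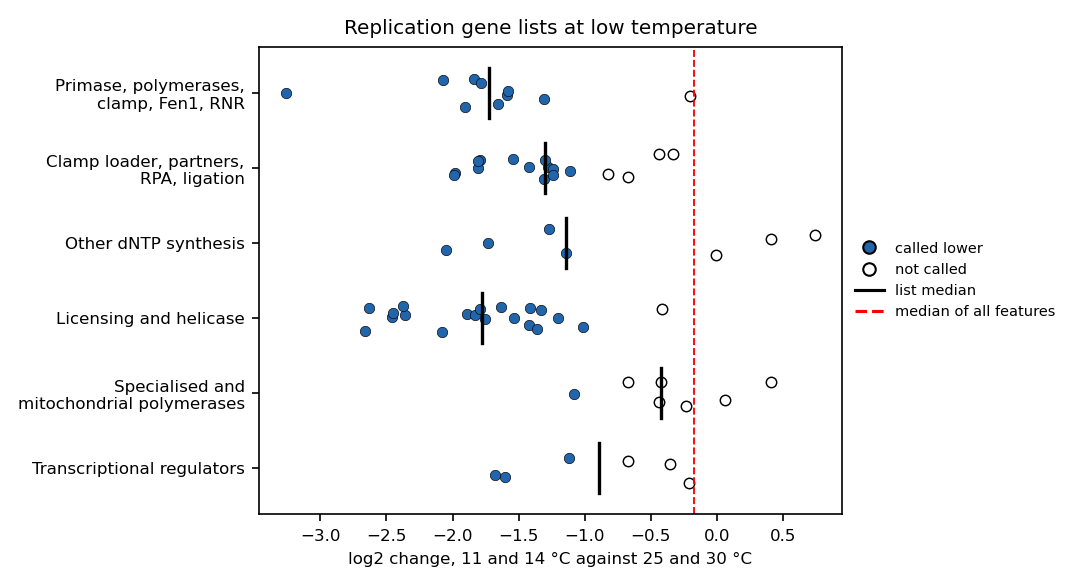
Log2 change at 11 and 14 °C against 25 and 30 °C of each gene tested in 6 lists. Filled points were called lower, open points were not called, black bars are list medians and the dashed line is the median of all features (-0.17). Nearly all points of the 10 genes and of the licensing and helicase list are filled, against 1 of 7 for specialised and mitochondrial polymerases.

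The other lists were counted in the remaining comparisons as well. Of the 51 genes, 37 were called lower at 11 and 30 at 14 °C against 25 °C, where 11.2% and 4.95% of all features were. At 11 against 14 °C 10 were called lower, beside 1.22% of all features. At 30 against 25 °C limma called none, beside 7.56% of all features in either direction, and 9 had an unadjusted p under 0.05. The 10 genes that were called in the step between 11 and 14 °C included DNAlig1, PolE2 and Ctf4, and 7 licensing and helicase genes, and lacked any deoxynucleotide synthesis gene. They were 3 of 17 and 7 of 20 genes of their lists, beside 4 of the 10 genes described here. Of the 51 genes, 3 were called in this step without replicate 1 or without replicate 2 at 14 °C, 4 without replicate 3 at 14 °C and 6 without replicate 1 at 11 °C. None was called by limma with the 6 arrays fitted alone, without all replicate 1 arrays or by treat (34, 32 and 2 had an unadjusted p under 0.05).

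Profiles over the 12 arrays, relative to the mean at 25 °C of each gene, were compared with those of 9141 RefSeq genes. The genes with the smallest root mean square difference from the mean profile of the 10 were SMC2, a condensin subunit (0.094), Mcm6 (0.105), CG34001 (0.107), hd (0.110) and NitFhit (0.122). Among the 10 genes themselves this difference was between 0.091 for PCNA and 1.06 for Fen1, with 1.03 for Prim1. The genes nearest to the profile of Prim1 alone were CG13690 (0.342), Mcm7 (0.438), CG9752 (0.453), CG31075 (0.458) and Orc6 (0.483). Differences from a single gene are not comparable with differences from a mean of 10 genes.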

How the data were processed

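RNA of S2R+ cells was hybridised to Agilent single-colour arrays, and per the file headers spots were read with Feature Extraction 10.7.3.1. The authors deposited spot intensity (processed signal, after background subtraction) and, in a separate table, log2 values, which were the log2 processed signals shifted by a constant per array. The array's genome build is not given in the sources used here. Flags deposited with the spots removed control and outlier spots. Log2 processed signals were averaged per probe, and arrays were centred on the median level of those at 25 °C. Probes were kept with 50% or more of spots flagged well above background on 2 or more of the 3 arrays of any temperature, given a value on 10 or more arrays, and were averaged per gene. Names came from RefSeq (Release 6 plus ISO1 MT). Means per temperature were fitted over all 12 arrays with limma 3.58.1 in R 4.3.3 (eBayes, Benjamini-Hochberg adjustment), and calls needed a fold change of at least 2 and an adjusted p under 0.01. The fit was tested on simulated data. The number of arrays limits the precision.

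All 10 genes were named, and from each other list the 3 with the largest and the 3 with the smallest change. The genes and lists were chosen with earlier results of these data known. Alternatives covered scaling, background correction, filters, probe choice, slide or replicate as a block, limma's treat, the arrays fitted and leaving out each array. Normexp used the median spot signal because the files read here hold no mean signal.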

Additional observations from a re-analysis of the deposited data

How the results depend on the processing

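Calls of the 9 genes at 11 against 25 °C were kept under all alternatives except normexp background correction, and those for the low against the high temperatures too, except that PolD1 also lost its call under limma's treat. Under normexp on the median signal and local background, limma called 0 of the 10 genes and 0 of the 51 other replication genes in every comparison (unadjusted p under 0.05 for 1, 3, 0, 0 and 0 of the 10 genes for low against high, 11 against 25, 14 against 25, 11 against 14 and 30 against 25 °C, and for 6, 9, 0, 0 and 0 of the 51). Local backgrounds reached 65238 there, against array medians of 22 to 38. A PolD1 spot on the replicate 3 array at 25 °C had a local background of 26592 and a median signal of 6414. With flagged local backgrounds replaced by the array median and left out of the normexp fit, an alternative chosen after seeing that outcome, 9, 9, 6, 5 and 0 of the 10 genes were called. Of all 15117 features, 621, 672, 166 and 126 were then called lower in the same order, and 452 in either direction at 30 against 25 °C.

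At 14 against 25 °C, spike-in scaling called 3 of the 10 and 12 of the 51 genes and treat 0 and 1. Scaling on the 75th percentile or on always-detected probes, and repaired normexp, gave 19, 19 and 17 of the 51. Treat called 24 of the 51 for low against high. At 11 against 14 °C, 0 and 0 were called by treat, by the arrays compared alone, and without replicate 1 arrays (added after seeing the data), with an unadjusted limma p under 0.05 for 1 and 2, 9 and 34, and 8 and 32 genes, and 6 of the 51 were called without a filter. Leaving out single arrays gave 2 to 7 of the 10 and 3 to 13 of the 51. At 30 against 25 °C the brightest probe gave 1 of the 51. Over all features, 55.2% of calls for low against high were lower ones, against 40.6% with the 75th percentile and 37.3% with spike-in scaling, which moved the median of all features by 0.20 and 0.24 on the log2 scale. The causes were not tested.

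Signs turned at 30 against 25 °C for PCNA, RnrL and RnrS, with 0.056, 0.0094 and 0.0057 (75th percentile), 0.057, 0.010 and 0.0066 (always-detected probes), 0.14, 0.077 and 0.088 (quantile), 0.23, 0.19 and 0.18 (spike-in) and 0.14, 0.11 and 0.12 (repaired normexp). They also turned for PolA2 (0.085) and PolD1 (0.063) with spike-in scaling, and for Prim1 (-0.70), PolA1 (-1.04) and PolE1 (-1.09) with normexp. Fen1 turned for low against high (0.044 spike-in, 0.070 normexp), at 14 against 25 °C (0.082 spike-in, 0.010 normexp) and at 11 against 14 °C (0.096 without replicate 1 arrays), and PolD1 at 14 against 25 °C (0.15 normexp). The PolD1 value includes the spot with a local background of 26592. Without single arrays, ranges crossed 0 for Fen1 at 11 against 14 °C (-0.19 to 0.24), and at 30 against 25 °C for PolA1 (-0.029 to 0.12) and PCNA (-0.058 to 0.021).

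Deviations of same-numbered arrays correlated with r between 0.089 and 0.574 in 18 pairs, 15 of them over 0.1, against -0.477 to 0.327 in 36 pairs of other numbers. Not every pair passed 0.1, so the numbers were not taken to pair the arrays, although all 18 correlations were positive, and 6 of 12 arrays correlated best with their own number. With a replicate block the count of the 10 genes called stayed at 9, 9, 9, 4 and 0. Permutation of subunit differences within replicate numbers gave an adjusted p of 0.0093 for each pair. Within slides, the same test gave an adjusted p of 0.167 for the differences over all 12 arrays, where only arrays of slide 1 could change places. This test has too few arrangements to pass 0.05. The differences on slide 1 alone were -1.58 (primase), 0.60 (polymerase alpha) and 0.40 (ribonucleotide reductase), and they were not tested.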
